A study of Mus musculus with 2 samples.

Results

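B cell precursors in the draining lymph node were followed here: B lineage cells that carried transcripts of the surrogate light chain or of the recombinase. A cell was taken as a member when it had at least 200 detected genes, at least 0.0015 of its unique molecular identifiers (UMIs, 1 per captured transcript) from Cd79a, Cd79b and Ms4a1, at most 1 UMI of Cd3d, Cd3e and Cd3g, under 20 UMIs of Jchain, and at least 2 UMIs of Vpreb1, Igll1 and Rag1 together. Of 16404 cells, 102 met these conditions. Levels of the genes in the rule chose the cells and are given below as description only.

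The cells came from popliteal lymph nodes (PLNs) of male TNF-Tg mice, which carry a human TNF transgene on a C57BL/6 background and develop inflammatory-erosive arthritis. An Early arthritis library was made from mice aged 5 to 6 months and an Advanced arthritis library from mice older than 8 months, each from 6 PLNs of 3 mice pooled before capture. Both groups carry the transgene, wild-type nodes are not analysed here, and living nucleated cells were sorted (Hoechst positive, Sytox Green negative) before droplet capture. With 1 library per group, arthritis stage, age and library cannot be told apart, no test between stages was possible, and every interval below covers counting error only, not the spread between cells or mice.

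The Early library held 67610110 UMIs in 8242 barcodes and the Advanced library 83148059 UMIs in 8201 barcodes. After the minimum of 200 genes, 8221 and 8183 cells remained, with medians of 6643 and 7837 UMIs per cell. The libraries shared 19 barcode sequences, and 0 of these were members. In each library 1 member also held many transcripts of another class. In the Advanced barcode, with 51257 UMIs, lay 17708 of the 17745 UMIs that all 93 Advanced members had for the neutrophil list. The Early barcode, with 29174 UMIs, held 11 UMIs of the T cell list, all of Cd8a, 9 of the natural killer list and 9 of the monocyte list. In it also lay all 7 UMIs of the dendritic cell list and 309 of the 504 UMIs of the MHC class II gene H2-Aa in the Early members. Gene levels below are therefore given without these 2 barcodes unless stated, a choice made after the data were seen, leaving 92 Advanced and 8 Early members. In those 92 cells the T cell list summed to 71 UMIs (0 to 5 per cell), the natural killer list to 11 and the monocyte list to 34, and Elane, Mpo, Cd14 and C1qa were at 0.

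B cells are made in the bone marrow in adult mice through ordered stages. A pro-B cell rearranges its immunoglobulin heavy chain gene with the RAG1 and RAG2 recombinase. The heavy chain then pairs with a surrogate light chain of VPREB and lambda 5 (Igll1) to form the pre-B cell receptor, the large pre-B cell divides, and the small pre-B cell stops dividing, rearranges kappa or lambda light chains and becomes an IgM positive immature B cell. Mature B cells of lymph nodes do not use the recombinase, and carry IgD, CD21, CD23 and MHC class II.

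The windows of 250 bases before the RefSeq start of the 3 precursor genes in the rule are shown because these genes define the cells (GRCm38.p6, RefSeq, 5′ to 3′ on the gene's strand). Capitals mark the E box hexamers CAGGTG, read on either strand as CAGGTG or CACCTG, and CAGCTG, the kind of site that E proteins such as E2A (Tcf3) bind.
Vpreb1, chr16:16869256-16869505, minus strand: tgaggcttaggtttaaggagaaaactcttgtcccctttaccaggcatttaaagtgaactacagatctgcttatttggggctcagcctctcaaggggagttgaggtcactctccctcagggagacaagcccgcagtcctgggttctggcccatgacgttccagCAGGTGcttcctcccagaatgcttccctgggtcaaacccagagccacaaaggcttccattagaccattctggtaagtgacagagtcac
Igll1, chr16:16863986-16864235, minus strand: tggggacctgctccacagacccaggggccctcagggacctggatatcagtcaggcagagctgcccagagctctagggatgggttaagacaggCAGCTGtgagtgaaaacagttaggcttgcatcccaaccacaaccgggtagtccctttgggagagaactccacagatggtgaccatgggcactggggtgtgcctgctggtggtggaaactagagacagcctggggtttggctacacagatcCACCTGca
Rag1, chr2:101649533-101649782, minus strand: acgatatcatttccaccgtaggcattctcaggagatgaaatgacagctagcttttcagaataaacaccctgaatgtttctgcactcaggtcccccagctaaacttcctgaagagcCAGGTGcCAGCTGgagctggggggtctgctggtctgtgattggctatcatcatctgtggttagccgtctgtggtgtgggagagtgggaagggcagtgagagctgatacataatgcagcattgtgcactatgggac
The first base of a CAGGTG match lay 88 bases before the start in Vpreb1, 8 in Igll1 and 135 in Rag1, and CAGCTG began 158 bases before the start in Igll1 and 128 in Rag1. Over all 32851 windows of the same length, 17.2% held CAGGTG, 13.0% held CAGCTG and 27.7% held either. The letters CCCNNGGG, of the kind bound by EBF1, were found in the Igll1 window and in 11.8% of all windows. These matches describe the letters only. In the GENCODE M21 annotation of the same build, Vpreb1 spans chr16:16868403-16870843 and Igll1 chr16:16860671-16863985, both on the minus strand, and Rag1 spans chr2:101638282-101649501. The Vpreb1 window thus lies inside the GENCODE span of Vpreb1, whereas the Igll1 and Rag1 windows lie upstream of theirs. The annotations place the Vpreb1 start differently, so its E box position holds for the RefSeq start only.

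The members made up a far larger share of the Advanced than of the Early node. There were 93 in the Advanced library, 1.14% of its cells (exact binomial 95% interval 0.918 to 1.39%), and 9 in the Early library, 0.110% (0.0501 to 0.208%). The Advanced share was 10.4-fold higher (exact conditional 95% interval 5.24 to 23.4), and 11.5-fold (5.62 to 27.6) without the 2 barcodes named above. Among cells that passed the B lineage conditions the ratio was 13.2 (6.65 to 29.7), with 9 of 7611 Early and 93 of 5967 Advanced cells. Members with at least 1 Rag1 UMI numbered 4 and 72, an 18.1-fold difference (6.77 to 68.2). The B lineage cells with no UMI of the 3 genes, called mature B cells below, were 92.2% of Early and 70.5% of Advanced cells, and as a share of B lineage cells their ratio, Advanced over Early, was 0.971 (0.939 to 1.005). T cells were 2.25% and 15.1% of all cells. Median depth was 8610 UMIs in Early and 9434 in Advanced members. Counted after cells were thinned to 2000 UMIs, with shallower cells left out of the total, the shares were 0.0248% and 0.508%.

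**Figure D1:**
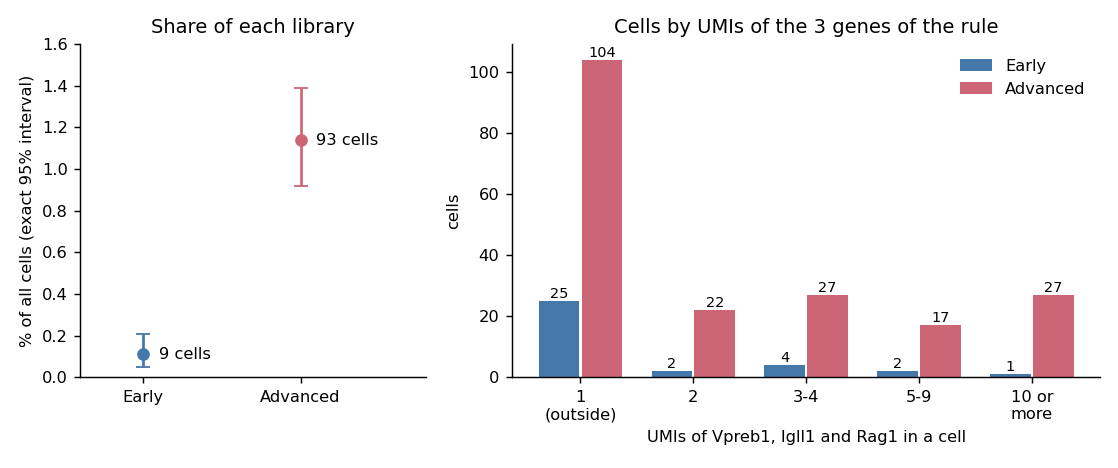
Left, members as a percent of all cells of each library (points, with exact binomial 95% intervals); right, the number of B lineage cells (y axis) by their UMIs of Vpreb1, Igll1 and Rag1 (x axis), with the cells just outside the rule at 1 UMI. The Advanced share of 1.14% lies above the Early share of 0.110%, and 27 Advanced cells against 1 Early cell have 10 or more UMIs of the 3 genes.

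Within the Advanced members the genes of the rule were unevenly spread. Vpreb1 was seen in 52 of 93 cells (lowest 0, median 1, highest 105 UMIs), Igll1 in 36 (0, 0 and 38) and Rag1 in 72 (0, 2 and 15). Through Rag1 alone, with no Vpreb1 or Igll1 UMI, 38 cells entered, and 21 had no Rag1 UMI. Of the 93, 22 cells sat at the limit of 2 UMIs, 27 had 3 or 4, 17 had 5 to 9 and 27 had 10 or more. Just outside, 104 Advanced and 25 Early cells had 1 UMI.

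Cells on either side of the limit differed in genes that the rule did not use. Levels are given as CPM, the UMIs of a gene per 1000000 UMIs summed over the cells of a class. Sox4, a transcription factor of lymphoid progenitors, was at 270 CPM in the 22 Advanced cells with 2 UMIs, 85.0 in the 104 cells with 1 UMI and 8.86 in mature B cells. Ighd, the constant gene of IgD, was at 153, 646 and 641 CPM in the same order. The cells with 1 UMI thus held Ighd at the level of mature B cells. The 22 cells include the neutrophil-bearing barcode, which had 0 UMIs of Sox4 and 2 of Ighd among its 51257. Cycling cells of 49422 and 57816 UMIs held 18 and 22 of the Sox4 UMIs and 0 and 2 of the Ighd UMIs. The pooled levels of the 22 cells, whose median depth was 9263 UMIs, therefore lean on few deep barcodes. In the Early library the 2 cells with 2 UMIs had no Sox4, Il7r or Cd93 UMI and held Ighd at 658 CPM, against 657 in Early mature B cells.

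The label was checked with Cd93, the AA4.1 antigen of immature B cells and the 1 marker given for these cells that is not in the rule. In the 92 Advanced members Cd93 was at 121 CPM against 4.77 in mature B cells, 25.3-fold higher (20.4 to 31.2), with 58 cells carrying it (median 1, highest 10 UMIs). After thinning to 2000 UMIs, Cd93 was seen in 20.9% of members, 0.929% of mature B cells and 0.324% of T cells, and unthinned in 63.0% of members and 3.29% of mature B cells. Median depths were 9321.5, 7370.5 and 11047 UMIs. T cells serve as the class that should lack B cell transcripts, and the share of Advanced members lay above both. In the 9 Early members Cd93 had 3 UMIs, at most 1 a cell, in 3 cells. After thinning 0 of the 9 carried it (exact binomial 0 to 33.6%), so Cd93 does not settle the label there. The paper that reported the libraries labels its plasma cell cluster by Cd93, Irf4 and Cxcr4, so Cd93 alone does not part members from plasma cells. Over all 93 Advanced members Jchain, limited by the rule, had 8 UMIs and Prdm1 had 9. Of 4 measured plasma cell list genes outside the rule, 2 were over 2-fold higher in the 92 members than in mature B cells and 0 lower. Of the stem and progenitor genes, Cd34, Gata2, Hlf and Procr were at 0 UMIs in the 92 cells, and Kit was at 8.21 CPM.

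Advanced members were compared with Advanced mature B cells over all genes with at least 20 CPM in either class. A gene was counted as higher or lower when the exact 95% interval of the CPM ratio lay wholly beyond 2-fold. With all 93 members, 592 of 5705 genes (10.4%) were higher and 137 (2.4%) lower. With TMM factors these were 441 and 266, and with totals free of ribosomal protein, mitochondrial and immunoglobulin genes 588 and 230. Without the neutrophil-bearing barcode, 598 of 5723 (10.4%) were higher and 135 (2.36%) lower, and the median log2 ratio of all genes was 0.31. That 1 barcode supplied 99.7 to 100% of the member UMIs of S100a8, S100a9, Camp, Ngp, Elane, Prtn3, Fcnb and Lcn2, genes of neutrophils and their precursors, which stood among the genes furthest above mature B cells when all 93 were used. The members were chosen on their transcripts, so these counts describe them and test nothing.

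Recombination genes were among those higher in the members. Of 8 genes of the recombination and end joining list with enough counts, 6 were higher and 0 lower, with a median log2 ratio of 3.22. Rag2, the partner of RAG1 in the recombinase, was at 41.9 CPM against 0.0607 in mature B cells (3 UMIs), a ratio of 690 with an interval of 223 to 3459, and was seen in 35 of 92 members, with at most 4 UMIs a cell. Dntt, the polymerase that adds bases to coding ends, was at 154 against 3.32 CPM (46.6-fold, 37.6 to 57.8). The repair genes Lig4, the ligase that seals the break, and Xrcc6, the Ku70 end-binding protein, were 11.2-fold (8.02 to 15.5) and 21.2-fold (18.5 to 24.2) higher. Hmgb1 and Hmgb2, chromatin proteins that assist the recombinase and are also abundant in dividing cells, were 5.30-fold and 7.71-fold higher. Paxx, at 45.2 against 35.2 CPM, and Atm, at 18.1 against 28.2, did not pass.

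The surrogate light chain list holds 3 measured genes outside the rule. Vpreb2, a near copy of Vpreb1, was at 164 CPM against 0.162 (1015-fold, 506 to 2385), in 26 members. The last 300 bases of the Vpreb1 and Vpreb2 transcripts are 96.0% identical, so how the counting divided reads between them is uncertain. Vpreb3, a chaperone that binds free immunoglobulin chains, was at 2790 against 180 CPM (15.5-fold, 14.9 to 16.1), and in all 93 members it ran from 0 to 162 UMIs a cell with a median of 28 and was at 0 in 2 cells. Ighm, the heavy chain of the pre-B and B cell receptor, was at 2585 against 2075 CPM (1.25-fold) and was present in all 93 members. The adaptors and kinases below the receptor differed little: 0 of 10 genes were higher or lower, with Syk at 1.36-fold and Blnk at 1.62-fold.

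Early lymphoid transcription factors stood apart, with 4 of 5 higher and a median log2 ratio of 5.46. Myb, which maintains lymphoid progenitors, was at 275 against 4.63 CPM (59.4-fold, 50.1 to 70.6), Sox4 at 362 against 8.86 (40.9-fold, 35.8 to 46.8) and Lef1, a partner of beta-catenin, at 146 against 3.32 (44.1-fold, 35.5 to 54.8). Erg, an ETS factor of haematopoietic progenitors, was at 47.6 against 0.202 CPM (236-fold, 119 to 517). Id3, an inhibitor of E proteins, was 1.37-fold. In contrast the B lineage factors were mostly shared with mature B cells, and 3 of 17 were higher. These were Tcf3 (E2A, 4.25-fold), Bach2, a repressor of plasma cell fate (3.65-fold), and Irf4, which promotes light chain rearrangement (2.59-fold). Ebf1, the factor that commits cells to the B lineage, was at 3020 against 1503 CPM (2.01-fold, 1.94 to 2.08), and Pax5, which maintains that commitment, was 1.13-fold.

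Of the pre-B and immature B stage genes 7 of 9 were higher, with a median log2 ratio of 4.66. Bst1 (BP-3), an ectoenzyme of precursor B cells, was 78.5-fold higher (54.2 to 115), Il2ra (CD25), a marker of small pre-B cells, 33.1-fold (23.8 to 45.9), and Cd24a (heat stable antigen) 3.44-fold (3.25 to 3.63). Akap12 was at 252 against 8.17 CPM. Cd2 and Ly6d, which mature B cells also carry, were at 1.08-fold and 0.754-fold. Among cytokine receptors, Il7r, the receptor chain through which IL-7 supports precursors, was at 213 against 6.31 CPM (33.7-fold, 28.5 to 39.9) and ran from 0 to 16 UMIs a cell over the 93 members. Socs2, on the same list, was 58.0-fold higher, while Il2rg, the chain shared by the receptors for several interleukins, was lower (77.2 against 193 CPM). Of 6 measured genes of that list 2 were higher and 1 lower, with a median log2 ratio of -0.22, and signalling through IL-7 was not tested. T cells carry Il7r too, at 267 CPM, and the T cell list as a whole was at 58.3 CPM in members and 81.2 in mature B cells.

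Genes of the mature B cell lay lower in the members. Of 18 on that list 8 were lower and 0 higher, with a median log2 ratio of -1.29. Ighd was at 214 against 641 CPM (0.335-fold, 0.295 to 0.378), with a median of 1 UMI and a highest of 21 in all 93 members, of which 59 had any. Cr2 (CD21), the complement receptor, was at 80.5 against 377 CPM, and Fcer2a (CD23), the low affinity IgE receptor, at 84.6 against 334. The MHC class II list moved as a block, with 10 of 11 lower, 0 higher and a median log2 ratio of -1.85. H2-Aa was at 1155 against 4159 CPM (0.278-fold, 0.263 to 0.293), its invariant chain Cd74 at 3379 against 11440, and the transactivator Ciita at 50.1 against 148. H2-DMb1 (36.1 against 94.4 CPM) was the member that did not pass. H2-Aa ran from 0 to 161 UMIs a cell with a median of 3, so the members themselves were not alike.

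Receptors for position in tissue were mixed, with 1 of 13 higher and 4 lower. Cxcr4, which holds precursors near CXCL12 in bone marrow, was at 129 against 48.5 CPM (2.66-fold, 2.25 to 3.13). Ccr6, Itgb7, Itgal and Gpr183, which guide or retain mature lymphocytes, were lower at 0.244, 0.220, 0.302 and 0.271-fold. S1pr1, which lets lymphocytes leave tissue, was at 83.8 against 124 CPM and did not pass. Survival genes were split: Bcl2l1 (Bcl-xL) was 29.0-fold (21.6 to 38.8) and Pim1 4.42-fold higher, and Bcl2 and Bcl2a1b were 0.271-fold and 0.167-fold. On the list of TNF receptors and NF-kB targets 0 of 9 were higher and 2 lower, and on the interferon list 0 of 5 passed.

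By the rule for single genes, the 12 genes with the highest lower bound of the ratio were Vpreb2, Rag2, Crhbp, Rsph1, Erg, Gfra1, Cplx2, Rd3l, Smtnl2, Myl10, Epb41l4b and Ptgr1. Of these Rsph1, a radial spoke protein, was at 185 against 1.01 CPM in 41 members, and Gfra1, a GDNF receptor, at 72.3 against 0.364 in 44. Cplx2, a complexin, was at 200 against 1.39 CPM in 62 members. The largest share of such a gene in 1 cell was 30.9%, for Myl10. The 12 with the lowest upper bound were Fcer1g, Apoe, Egr3, Ighg1, Siglech, Ly6a, Bcl2a1b, Cr2, Hcst, Gimap3, Cybb and Plbd1. Apoe was at 33.7 against 290 CPM and Egr3, induced through the antigen receptor, at 3.29 against 51.2. Ighg1, the switched IgG1 chain, and Siglech, of plasmacytoid dendritic cells, had 1 UMI each in the 92 members. The mature B cells were not cleared of mixed barcodes. Single cells among them held up to 169 UMIs of the monocyte list and 1019 of the neutrophil list. Fcer1g was seen in 384 and Siglech in 159 of the 5770 mature B cells, so these 2 differences may rest on transcripts of other classes, which was not tested.

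**Figure D2:**
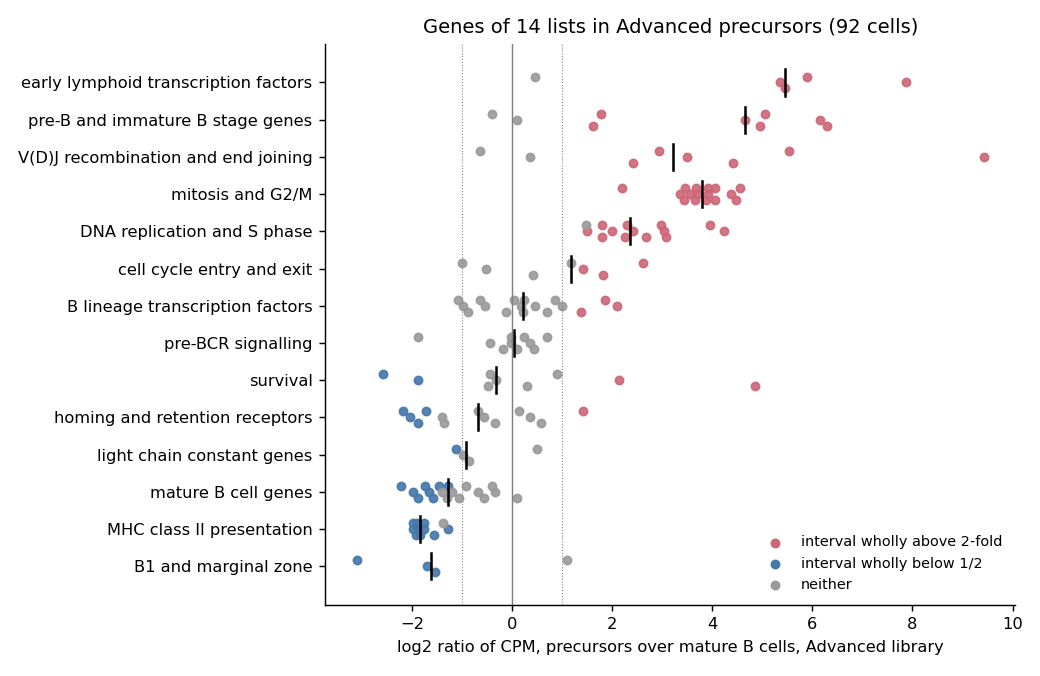
Each point is 1 gene of 14 lists, placed by the log2 ratio of its CPM in 92 Advanced members over Advanced mature B cells (x axis), with red and blue for intervals wholly beyond 2-fold and black bars for list medians. Early lymphoid factors (median 5.46) and stage genes (4.66) lie to the right, and MHC class II (-1.85) and mature B cell genes (-1.29) to the left.

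A part of the Advanced members was dividing. With cycling taken as at least 2 UMIs of Mki67 and Top2a, 21 of 93 (22.6%, exact binomial 14.6 to 32.4%) were cycling, 62 (66.7%) had Rag1 and were not cycling, and 10 (10.8%) had neither. Few cells lay near this limit: 18 members had 10 or more of these UMIs, 3 had 2 or 3, and 3 had 1. Thinned to 2000 UMIs, 15.2% were cycling. Of mature B cells, 2.22% were cycling in the Advanced and 1.43% in the Early library. Of the 9 Early members 0 were cycling, which allows up to 33.6%.

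Against mature B cells, all 16 measured mitosis genes and 13 of 14 replication genes were higher in the 92 Advanced members, with median log2 ratios of 3.80 and 2.35. Top2a, which untangles DNA, was at 531 against 35.0 CPM (15.2-fold, 13.8 to 16.6), and Pcna, the replication clamp, at 251 against 71.8. Ccnd3, the D cyclin that large pre-B cells need, was 6.15-fold higher (5.55 to 6.79), and Btg2, an antiproliferative gene, 2.66-fold. When cells that were cycling were left out of both classes, 0 genes of either division list passed. Cycling was set by Mki67 and Top2a, both on the mitosis list, so this outcome was largely fixed by the split. In the same comparison 5 recombination genes, 4 early lymphoid factors and 6 stage genes were higher, and 7 MHC class II and 2 mature B cell genes lower. Over all genes 347 were higher and 26 lower there. The numbers of genes measured are not given for this comparison, so the list counts cannot be set against a share of all genes. Depth moved with the state: cycling members had a median of 16062 UMIs and the Rag1 members that were not cycling 7312. Its part in the result was not tested.

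Cycling mature B cells of the same library are the cells most like cycling members. Over 5697 genes, 203 (3.56%) were higher in the 20 cycling members and 246 (4.32%) lower than in 128 cycling mature B cells. Germinal centre genes separated the classes, with 7 of 8 lower and 0 higher in members. Mef2b, a transcription factor of germinal centre B cells, was at 0 against 121 CPM and Rgs13 at 0 against 102, and Basp1, named by the single gene rule, was at 3.84 against 288. Ighg1 was at 0 against 271 CPM. All 11 MHC class II genes were lower, with a median log2 ratio of -3.10. Higher in the cycling members were Socs2 (171 against 4.04 CPM), Enpep (BP-1, 32.6 against 0), Bst1 and Crhbp.

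A second division of the Advanced members was by surrogate light chain transcripts, with the limit of 10 Vpreb1 and Igll1 UMIs set after the data were seen. Above it were 26 of 93 cells (28.0%), of which 11 were cycling and 18 had Rag1. Few cells lay near the limit, with 3 at 5 to 9 and 2 at 10 to 14 UMIs. The 26 cells had a median of 15134.5 UMIs and the other members 7747, so depth moved with the division, and its part in the result was not tested. Over 6054 genes, 99 (1.64%) were higher and 66 (1.09%) lower in the 26 than in the 66 others.

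A part of the listed precursor genes passed in this comparison, beside 1.64% of all genes higher and 1.09% lower. Of 3 measured surrogate light chain genes outside the rule 1 was higher. This was Vpreb2, at 409 CPM in the 26 cells rich in surrogate light chain against 5.42, a near copy of Vpreb1, which set the split. In the rich cells 1 of 7 recombination genes, 2 of 5 early lymphoid factors and 1 of 10 stage genes were higher, and 3 stage genes were lower. All 4 light chain genes, 5 of 11 MHC class II and 6 of 18 mature B cell genes were lower, with none higher. All 188 UMIs of Dntt lay in the rich cells, in 18 of 26 cells. With the 0 UMIs of the others set to a floor of 3 counts the ratio was 96.6, and the exact interval began at 77.8. Arpp21 was at 58.5 against 0 CPM, Erg at 109 against 8.13, Lef1 at 298 against 47.4 and Kit, the stem cell factor receptor of pro-B cells, at 20.9 against 0. Myl10 had 94 UMIs in 13 of the 26 cells and 0 in the others. The interferon gene Isg15 was also higher, but 92.5% of its UMIs came from 1 cell. Il2ra was at 89.4 CPM against 8.35 in the rich cells, Cd2 at 204 against 18.8 and Socs1, an inhibitor of cytokine signals, at 79.9 against 2.09. Both sets shared Vpreb3 (2862 CPM in the rich cells and 2744 in the others), Cd93 (138 and 110) and Il7r (253 and 187). MHC class II was lower in the rich cells, with H2-Aa at 478 CPM against 1594.

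**Figure D3:**
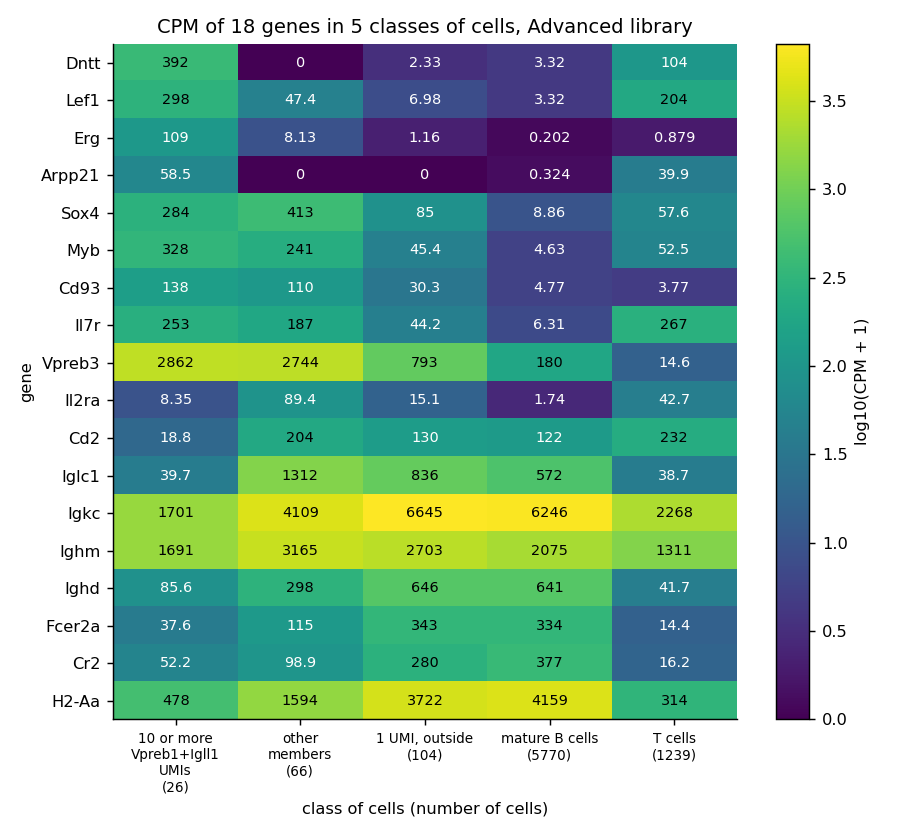
CPM of 18 genes (rows; numbers, with colour for log10 of CPM + 1) in 5 classes of Advanced cells (columns, with their number of cells). Dntt, Lef1, Erg and Arpp21 are highest among B lineage classes in the 26 cells rich in surrogate light chain, Sox4, Il2ra and Iglc1 in the other members, and Ighd, Fcer2a, Cr2 and H2-Aa are higher in the cells with 1 UMI and in mature B cells than in both sets of members.

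Light chain transcripts followed the same division cell by cell. Per 10000 UMIs, the sum of Igkc, Iglc1, Iglc2 and Iglc3 had a median of 8.45 (lowest 2.13, highest 175) in the 26 rich cells and 71.9 (7.89 to 277) in the 66 others. It was 94.2 in the 37 members with no Vpreb1 or Igll1 UMI, 17.5 in the 20 cycling members, 89.6 in mature B cells and 3.77 in T cells. The median of the rich cells thus lay nearer to that of T cells, which should lack these transcripts, than to that of mature B cells, with ranges that overlapped. Lambda exceeded kappa in 1 of 26 rich cells (3.85%, exact binomial 0.0973 to 19.6%), 19 of 66 others (28.8%, 18.3 to 41.3%) and 642 of 5770 mature B cells (11.1%, 10.3 to 11.97%). In the pooled counts Iglc1, a lambda constant gene, was at 39.7 CPM in rich cells against 1312 in the others (0.0302-fold, 0.0181 to 0.0475), and Igkc at 1701 against 4109. The ends of Iglc2 and Iglc3 are 94.0% identical and cannot be counted apart with certainty, whereas Iglc1 shares 63.0% with Iglc2 and 69.0% with Igll1.

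**Figure D4:**
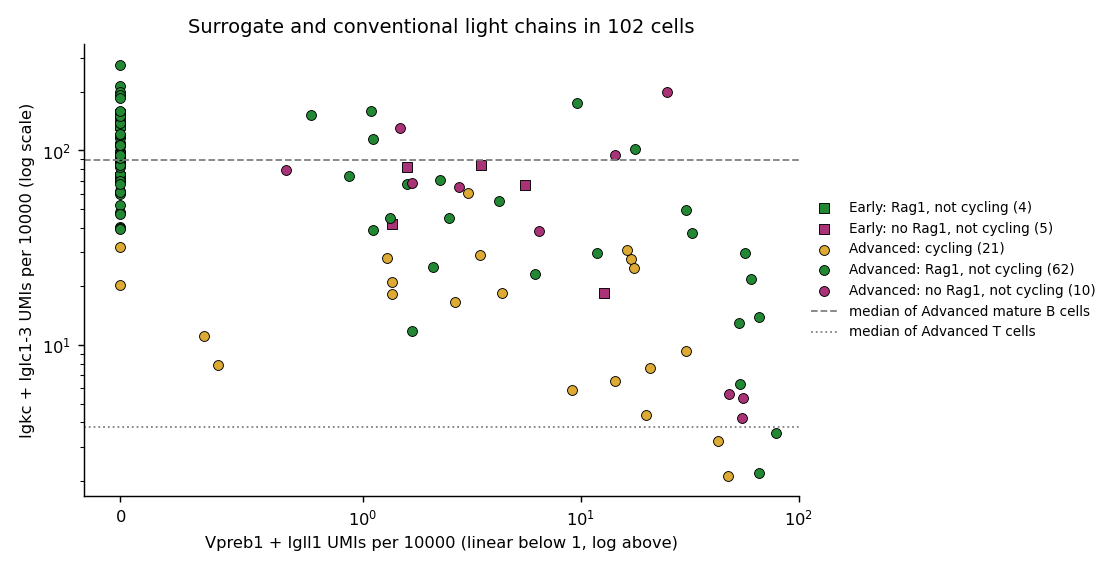
Each point is 1 of the 102 members, placed by its Vpreb1 and Igll1 UMIs per 10000 (x axis, linear below 1 and log above) and its Igkc and Iglc1 to Iglc3 UMIs per 10000 (y axis, log scale), coloured by state, with squares for Early cells. The 38 Advanced members with no Vpreb1 or Igll1 UMI lie at 20.3 or above on the y axis, and the 9 cells under 6 have at least 9.19 surrogate light chain UMIs per 10000.

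The 9 Early members were few and unlike each other. Vpreb1 alone brought in 3 of them, cells 1, 2 and 7 in the heat map of Early members, with 2, 2 and 3 UMIs. These 3 cells had 1, 4 and 2 UMIs of Vpreb3, no Sox4, Il7r or Cd93, and 3, 9 and 6 UMIs of Ighd. Rag1 brought in 4 cells with 3, 9, 3 and 7 UMIs (cells 3, 5, 8 and 9), and these held 32, 12, 35 and 31 UMIs of Vpreb3. Of these, cells 3, 8 and 9 also carried Sox4 (25, 5 and 3 UMIs) and Il7r (3, 2 and 1). Cell 4 was the 1 Early cell with abundant surrogate light chain, at 9 Vpreb1 and 2 Igll1 UMIs, 49 of Vpreb3, 6 of Il7r and 0 of Ighd and Ms4a1. Cell 6 was the barcode with transcripts of other classes. Members without Sox4, Il7r and Cd93 were not confined to the Early library. Advanced cells of 7207, 29257 and 13510 UMIs, each with 2 Vpreb1 UMIs and no Rag1, held 0 UMIs of these genes. They had 5, 1 and 0 UMIs of Vpreb3, 1, 11 and 3 of Ighd, and 13, 33 and 9 of Ms4a1.

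**Figure D5:**
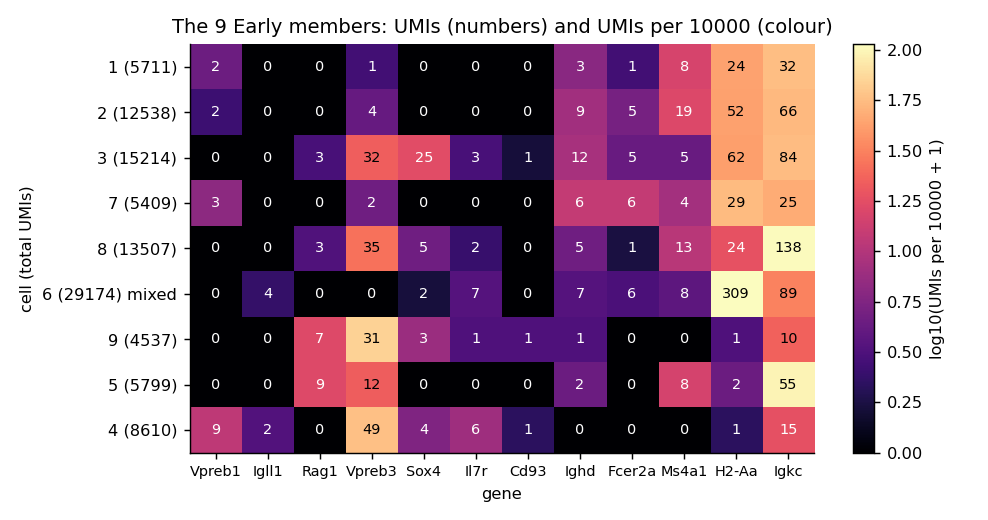
UMIs of 12 genes (columns, numbers; colour for log10 of UMIs per 10000 + 1) in each of the 9 Early members (rows, with total UMIs). Cells 3, 4, 8 and 9 combine Vpreb3 (32, 49, 35 and 31 UMIs) with Sox4 and Il7r, and cells 1, 2 and 7 hold Ighd, Ms4a1 and H2-Aa without them.

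Over all 9 Early members, 164 of 5259 genes (3.12%) were higher than in Early mature B cells and 1, Malt1 (0.019%), was lower. For the 8 cells without the mixed barcode, 152 of 5565 (2.73%) were higher and 0 (0.0%) lower. Higher were Sox4, at 519 against 2.08 CPM (249-fold, 168 to 363), of which 67.6% lay in 1 cell, Il7r at 168 against 0.472 (356-fold, 164 to 727) and Myb at 182 against 1.17 (156-fold, 78.8 to 284). Atp1b1, a sodium pump subunit, was at 757 against 9.31 CPM. The recombination list had 3 of 9 higher, early lymphoid factors 4 of 5 and stage genes 4 of 7. Of the 18 mature B cell genes and the 11 MHC class II genes 0 were lower, with median log2 ratios of -0.36 and -0.51.

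Set beside each other, all Advanced and all Early members differed by 79 of 5854 genes higher (1.35%) and 105 lower (1.79%) in the Advanced. Without the 2 barcodes these were 48 of 6105 (0.786%) and 53 (0.868%). Division genes led the higher ones, with 8 of 16 mitosis genes higher. These rest on few cells: Top2a was seen in 21 of 92 Advanced and 1 of 8 Early members. The interval of the cycling share in the Early members, 0 to 33.6%, contains the Advanced share of 22.6%. A difference in division between the stages therefore cannot be read from these ratios. Stmn1, a microtubule regulator, was at 800 against 14.02 CPM (57.1-fold, 10.2 to 2256), Top2a at 531 against 14.02 (37.9-fold, 6.77 to 1497) and Hist1h1b, a linker histone, at 1228 against 28.0. Lower in the Advanced were 5 of 11 MHC class II genes, among them H2-Aa (0.423-fold, 0.363 to 0.493). The precursor genes Sox4 (0.698-fold, 0.499 to 1.00), Il7r (1.27-fold, 0.712 to 2.48) and Cd93 (2.87-fold, 0.963 to 14.1) did not pass. Each Early value rests on 8 cells, 4 of which carry none of Sox4, Il7r and Cd93, and the part this plays in the lower MHC class II was not tested.

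A class outside the B lineage was counted for comparison, the cells under the Cd79a, Cd79b and Ms4a1 share of 0.0015 with at least 2 UMIs of Rag1 and Dntt together. Nearly all held Dntt, and Rag1 was seen in 26.2% of the Early and 37.3% of the Advanced ones. The Early library had 61 of them and the Advanced library 185 (2.26%), a 3.05-fold higher share (2.27 to 4.14). Of these, 38 and 76 had at least 2 UMIs of Siglech, a plasmacytoid dendritic cell gene, and 23 and 109 had none. Siglech was at 0 in the 9 Early members and at 1 UMI in 1 of 93 Advanced members. The 109 Advanced cells without Siglech held Cd3e at 249, Cd8b1 at 224 and Dntt at 907 CPM, with Vpreb3 at 64.8, far below the 2790 CPM of the members.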

How the data were processed

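Droplet single-cell 3' RNA-seq of PLN cells gave 1 pooled library per stage. The authors deposited gene by cell matrices of UMI counts, not normalized, with 32285 genes. The version of Cell Ranger is 6.0.1 per the file headers. In the submitters' processing notes it is 3.1 and also 3.1.0, beside the genome build mm10 and Seurat 4.0.3. Counts were used as deposited. Barcodes of the Early library reached down to 501 UMIs and of the Advanced to 502, and the 200 gene minimum removed 21 and 18. Members were set by the rule given above, and mature B cells are cells that pass its B lineage conditions with 0 UMIs of Vpreb1, Igll1 and Rag1. Barcodes with many transcripts of other classes were left out of the members only, not of the mature B cells. T cells had at least 3 UMIs of Cd3d, Cd3e and Cd3g. The members, the rule and the 31 gene lists were chosen with earlier results of these data known.

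Counts were summed per class, and CPM ratios carry exact conditional 95% intervals for counting error, which treat UMIs as independent molecules. The genes of the rule were left out of all counts. A class with 0 UMIs was set to a floor of 3 counts to give a ratio, which can lie above the lower end of the exact interval. Named genes are the 12 in each direction with the interval bound furthest from 1, plus the list genes, leaving out gene models without a name. Samples were not regrouped, no test between libraries was made, and the calculation was checked on simulated data. Doublets were kept. The 541 Early and 536 Advanced cells with the highest Scrublet scores (0.8% per 1000 cells) were left out as an alternative, and 1 Early and 0 Advanced members were among them. Python 3.11.15, numpy 2.4.6, scipy 1.17.1, pandas 2.3.3, scanpy 1.11.5, edlib 1.3.9.post1 and matplotlib 3.10.9 were used. Some items are not reported here.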

Additional observations from a re-analysis of the deposited data

Results flagged for a closer look

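For 9 named or listed genes the ratio of members to mature B cells lay on opposite sides of 1 in the libraries, with both intervals clear of 1. The difference itself was not tested. H2-Eb1 was 0.265-fold in the Advanced and 1.24-fold in the Early library, H2-Aa 0.272 and 1.21, H2-Ab1 0.292 and 1.18, and Cd74 0.294 and 1.11. Without the 2 barcodes that held transcripts of other classes, the Early ratios of these 4 genes were 0.640, 0.660, 0.704 and 0.711, so both libraries then lay below 1. S100a4 was 0.324-fold in the Advanced and 34.4-fold in the Early library, and 0.337 and 0.583 without these barcodes. Ms4a6c was 0.117 and 13.2, and had 0 UMIs in the 8 remaining Early members. S100a6 was 0.470 and 11.3, and 0.490 and 2.61 without them. Bst2 was 0.714 and 8.18, and 0.733 (0.566 to 0.935) and 2.88 (1.16 to 5.95) without them. Ly6d was 0.741 and 1.25, and 0.754 (0.721 to 0.788) and 1.63 (1.43 to 1.84) without them. For S100a6, Bst2 and Ly6d the 2 libraries therefore remained on opposite sides of 1, with 8 Early cells.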

How the results depend on the processing

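The alternatives without mixed barcodes, the split at 10 surrogate light chain UMIs, the comparison of cycling cells, the Siglech split and the light chain values per cell were chosen after the data were seen. No paired analysis was possible because each stage has 1 library with no replicate numbers. Of the alternatives to shares and counts of genes, 49 of 78 stayed within the main interval or within 1.5 times the main count. The Early share was 0.0365% at 5 or more UMIs of the rule genes and 0.0248% after thinning to 2000 UMIs. The Advanced share was 0.868% at 3 or more UMIs, 0.538% at 5 or more, 0.508% after thinning and 0.831% at a B lineage share of 0.003. Genes higher in Advanced members than in mature B cells numbered 1135 with no minimum CPM, 349 at 50 CPM, 975 with each cell weighted equally and 347 without cycling cells. Genes lower numbered 230 with totals free of ribosomal protein, mitochondrial and immunoglobulin genes, 266 with TMM factors, 354 with equal weights and 26 without cycling cells. In the Early library genes higher numbered 277 with no minimum, 89 at 50 CPM, 1490 with equal weights and 260 at 5 or more UMIs, and genes lower 6 with TMM, 567 with equal weights, 14 at 5 or more UMIs, 2 without the highest Scrublet scores and 0 without mixed barcodes. Genes higher in Advanced than in Early members numbered 1106 with equal weights, 14 at 5 or more UMIs and 48 without mixed barcodes, and genes lower 59 at 50 CPM, 984 with equal weights and 53 without mixed barcodes. Scaling moved the Advanced log2 ratios by -0.31 with TMM and by -0.19 with the other totals. With TMM 13 mature B cell genes, 11 MHC class II genes and 5 stage genes passed in the directions given above.

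Neutrophil genes reversed: the log2 ratio of Camp over all 93 Advanced members became -0.94 at 5 or more UMIs, that of Ngp -0.36, -0.51 and -1.24 at 5 or more UMIs, without cycling cells and without mixed barcodes, that of S100a8 -1.74, -1.55 and -1.82 in the same order, and that of S100a9 -1.04 at 5 or more UMIs and -0.41 without mixed barcodes. These settings leave out the barcode that held 99.7% or more of their UMIs. For the other moves the cause was not tested. The chief limits are 1 library per stage, 9 Early members, and a rule on raw UMIs that admits deeper cells more readily.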

Other observations

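Of 5 genes of factors that support precursors in bone marrow, 4 had under 100 UMIs in each library and Flt3l had more. Il7, the growth factor of early B cells, had 5 UMIs in 4 Early cells and 23 in 15 Advanced cells. Cxcl12, the ligand of CXCR4, had 2 UMIs in 1 cell and 97 in 18 cells, and Kitl, the ligand of KIT, 1 UMI in 1 cell and 37 in 8 cells. Tslp had 6 UMIs in 4 cells and 15 in 13 cells, and Flt3l, the ligand of FLT3, 825 in 729 and 1476 in 1215 cells. These totals cover all cells of each library. In the 92 Advanced members Car2 and Tfrc, on the erythroid list, were at 94.5 against 14.2 and 138.8 against 19.96 CPM in mature B cells, while Alas2 and Klf1 of that list were at 0. TFRC, the transferrin receptor, is also carried by dividing cells of other lineages.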
